A study of Mus musculus with 6 samples.

Results

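The genes that copy, set and remove DNA methylation were followed in bulk-seq of the spinal cord. The group holds 9 genes, Uhrf1, Uhrf2, Dnmt1, Dnmt3a, Dnmt3b, Hells, Tet1, Tet2 and Tet3, of 25576 genes with a value above 0 in at least 1 library, and all 9 were above 0 in every library. They were taken by gene name and chosen from earlier results of these same FPKM values, in which Uhrf1 stood out, so their differences between SMA and control are described here without a test. The data are 6 libraries of whole spinal cord from FVB mice at postnatal day 4. The 3 SMA libraries are labelled mSmn-/-, hSMN22tg/0, a knockout of mouse Smn that carries the human SMN2 transgene and models type I (Taiwanese) spinal muscular atrophy. The 3 control libraries are labelled mSmn+/-, hSMN22tg/0, so the controls also lack 1 copy of mouse Smn and carry the same transgene. Nothing in the labels says that the libraries of a group came from separate animals, and the methods of the study can be read as a single sample per group sequenced in replicate. Each n below therefore counts libraries, and p-values measure only the spread between these samples, which may be technical.

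Cytosine methylation at CpG sites has to be copied each time DNA is replicated. Uhrf1 binds the half-methylated sites left by replication and recruits Dnmt1, the maintenance methyltransferase, and Hells is a chromatin remodelling ATPase that opens packed DNA for methylation. Uhrf2 is the paralog of Uhrf1. Dnmt3a and Dnmt3b place new methylation, and Dnmt3a is the main such enzyme of postnatal neurons. Tet1, Tet2 and Tet3 oxidize methylated cytosine, the first step of its removal, and the hydroxymethylated base is abundant in neurons. Uhrf1 is tied to dividing cells, since its transcription rises around entry into S phase.

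FPKM are fragment counts divided by exon length and by the total of mapped fragments. Values of the 3 libraries of a group are given in the order of replicate number. Smn1, the targeted gene, was at 10.4, 8.64 and 11.9 FPKM in the control libraries and 8.48, 9.30 and 11.1 FPKM in the SMA libraries. These ranges overlap and give the genotype labels no check, so every direction below rests on the labels. The paper describes a reduction of CD31, the product of Pecam1, in SMA spinal cord at this age. That was protein stained in sections, a measure unlike the RNA given here. Here Pecam1 was at 5.2, 7.1 and 5.3 FPKM in the control libraries and 4.5, 2.9 and 3.6 FPKM in the SMA libraries. Whether the labels are right was not tested. Control replicate 2 stood apart from the other 5 libraries. Its correlation of log2(FPKM + 1) with them across genes, which are not independent replicates, was 0.836 to 0.849, against at least 0.983 among the other 5. All 27 hepatocyte markers, all 22 erythroid markers and all 14 neutrophil and progenitor markers were highest in that library. The hepatocyte list, led by Alb, summed to 33514 FPKM there (8.10% of all FPKM) and to between 55.6 and 120 FPKM in the other libraries. The neuron list, led by Meg3, summed to 1770 FPKM there and to between 2458 and 2822 FPKM elsewhere, so neuronal RNA was present in every library. Each result is therefore given with and without control replicate 2. Depth in reads is unknown for FPKM. Relative depth, read from the ratio at which values under 0.15 FPKM peaked, was 0.993 to 1.149 when SMA replicate 1 is set to 1.

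The 9 genes differed widely in level. Over the 5 libraries without control replicate 2, Dnmt3a was the most abundant at 67.0 ± 2.83 FPKM (SD, n = 5). It was followed by Tet3 at 26.8 ± 0.982, Tet2 at 23.1 ± 1.61, Uhrf2 at 19.7 ± 1.10, Tet1 at 18.8 ± 1.00 and Dnmt1 at 15.0 ± 0.440 FPKM (SD, n = 5 each). Hells at 4.82 ± 0.598, Uhrf1 at 3.87 ± 1.24 and Dnmt3b at 0.908 ± 0.338 FPKM (SD, n = 5 each) lay below them. Neighbours in this order overlapped over the 5 libraries for Tet2 with Uhrf2, Uhrf2 with Tet1, and Hells with Uhrf1. All other neighbours were apart. In control replicate 2 the order differed: Tet1 at 12.05 FPKM lay below Dnmt1 at 14.1 and Uhrf1 at 13.6 FPKM, and Uhrf2 at 24.2 lay above Tet2 at 23.0 FPKM. Dnmt3a was the highest of the 9 and Dnmt3b the lowest in every library, and Uhrf2 was above Uhrf1 in each.

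**Figure D1:**
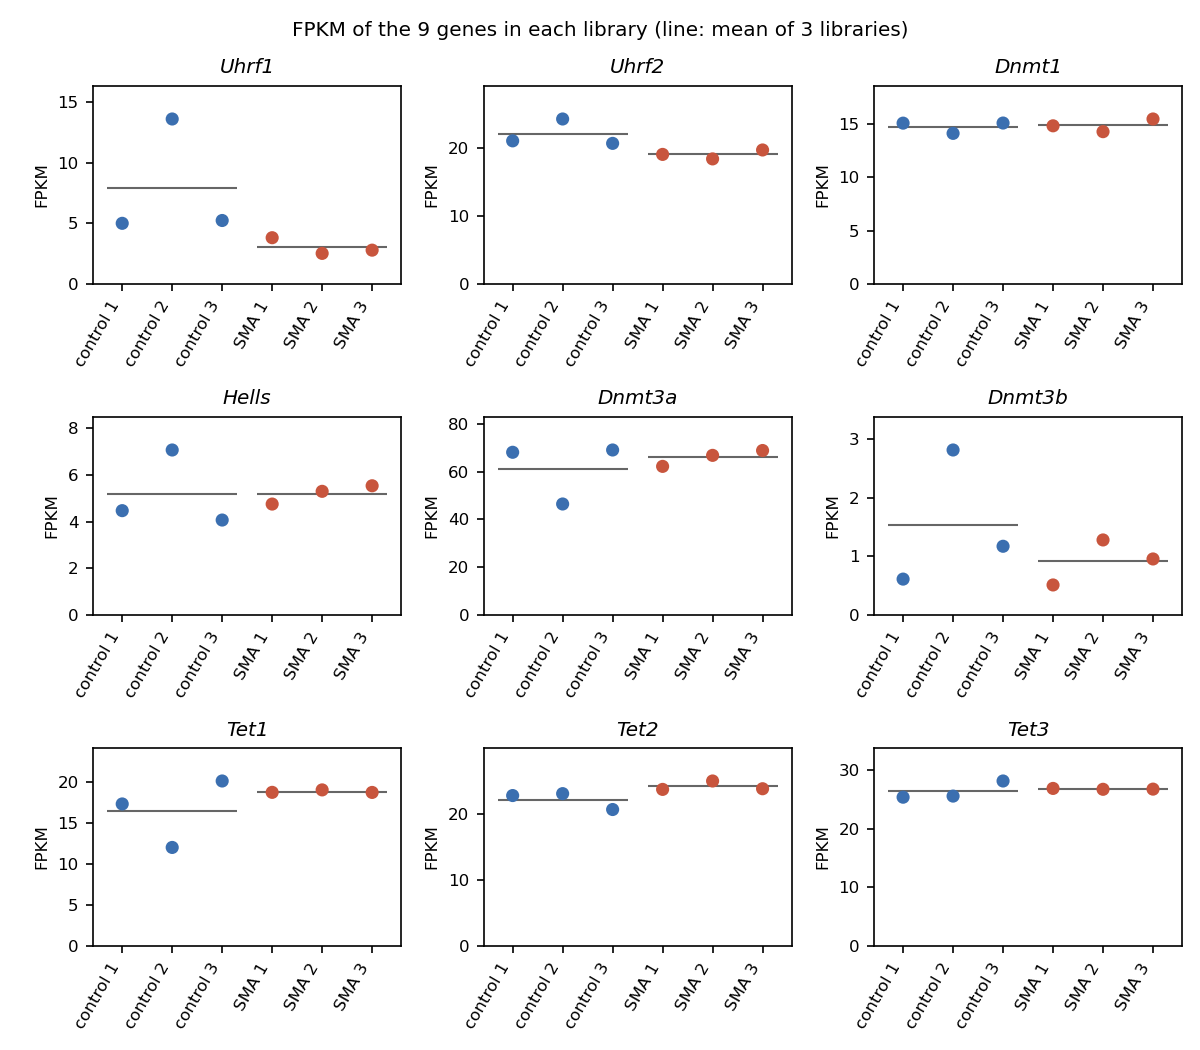
Each panel shows FPKM (vertical axis, from 0) of 1 gene in the 6 libraries, control in blue and SMA in red, and each line is the mean of the 3 libraries of a group. Uhrf1 lies between 4.99 and 13.6 FPKM in control and between 2.52 and 3.81 FPKM in SMA, while Dnmt1 lies between 14.1 and 15.5 FPKM in all libraries.

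Uhrf1 (ENSMUSG00000001228) lies on the plus strand of chromosome 17 from 56303321 to 56323486 in GRCm38 and overlaps no other gene in GENCODE M21. It was at 4.99, 13.6 and 5.23 FPKM in the control libraries and 3.81, 2.52 and 2.78 FPKM in the SMA libraries. Every SMA library lay below every control library, and control replicate 2 was more than 2 times as high as any other library. The means were 7.94 ± 4.90 FPKM in control and 3.04 ± 0.682 FPKM in SMA (SD, n = 3 each), and 5.11 ± 0.164 FPKM (SD, n = 2) in control without replicate 2. On the scale of log2(FPKM + 1), which understates the change of low genes, the log2 fold change of SMA against control was -1.03 (standard error 0.354) over 6 libraries and -0.61 (standard error 0.159) without control replicate 2. In FPKM, the mean of SMA was 0.383 of the control mean, and 0.594 of it without control replicate 2. In spinal cord tissue, fewer cells that transcribe a gene and less RNA of it per cell cannot be told apart.

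Dnmt1 (ENSMUSG00000004099), on the minus strand of chromosome 9 from 20907206 to 20959888, is the enzyme that Uhrf1 recruits. It was at 15.1, 14.1 and 15.1 FPKM in the control libraries and 14.8, 14.3 and 15.5 FPKM in the SMA libraries. The groups overlapped, and control replicate 2 held the lowest of these closely spaced values. Its log2 fold change was 0.0086 (standard error 0.0873) over 6 libraries and -0.02 (standard error 0.0736) without control replicate 2. Uhrf1 was at 0.331, 0.962 and 0.346 times the FPKM of Dnmt1 in the control libraries and at 0.257, 0.176 and 0.180 times in the SMA libraries. This ratio is unchanged by any single factor per library, though quantile normalization can change it, and it was lower in every SMA library than in every control library. Alone, the ratio does not show which gene changed. The FPKM of Dnmt1 overlapped between the groups, and those of Uhrf1 did not.

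Hells (ENSMUSG00000025001), on the plus strand of chromosome 19 from 38930915 to 38971051, was at 4.46, 7.06 and 4.06 FPKM in the control libraries and 4.75, 5.29 and 5.53 FPKM in the SMA libraries. Control replicate 2 was again the highest library, but the other control libraries were the lowest. The log2 fold change of 0.03 (standard error 0.190) over 6 libraries became 0.23 (standard error 0.117) without control replicate 2, when all SMA libraries lay above both control libraries. Under median ratio scaling the value over 6 libraries was -0.02. Hells therefore did not share the lower SMA values of Uhrf1.

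Uhrf2 (ENSMUSG00000024817), on the same strand and chromosome from 30030513 to 30093722, was at 21.01, 24.2 and 20.6 FPKM in the control libraries and 19.0, 18.4 and 19.7 FPKM in the SMA libraries. Every SMA library was below every control library, by a small margin. The log2 fold change was -0.19 (standard error 0.0985) over 6 libraries and -0.12 (standard error 0.0674) without control replicate 2, and under the 3 other scalings of FPKM it lay between -0.25 and -0.17 over 6 libraries.

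Uhrf1, Hells and Dnmt1 were the only members with letters of E2F sites in the promoter table of RefSeq (build GRCm38.p6), and these windows are shown because 3 genes of 1 process, 1 lower and 2 not lower in SMA, carry such letters. The table holds windows of 300 bases around transcript starts, most of it before them, and all 9 members matched, with 14 windows. The 4 motifs TTTGGCGC, TTTCCCGC, TTTGCCGC and TTTCGCGC were searched on both strands. Any of them was in 2.26% of all 32851 windows and in 5.06% of the 3837 windows with at least 30 CpG, a limit chosen after the members' counts were seen. Capitals mark the matches. The windows are chr17:56304063-56304362 on the plus strand for Uhrf1, chr19:38930740-38931039 on the plus strand for Hells and chr9:20952574-20952873 on the minus strand for Dnmt1, each written 5′ to 3′.
Uhrf1: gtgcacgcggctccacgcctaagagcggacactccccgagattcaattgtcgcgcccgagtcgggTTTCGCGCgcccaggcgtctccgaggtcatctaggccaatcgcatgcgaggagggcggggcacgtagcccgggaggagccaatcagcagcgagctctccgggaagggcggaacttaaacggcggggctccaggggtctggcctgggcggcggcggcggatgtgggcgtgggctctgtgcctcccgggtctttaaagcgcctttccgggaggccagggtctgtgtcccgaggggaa
Hells: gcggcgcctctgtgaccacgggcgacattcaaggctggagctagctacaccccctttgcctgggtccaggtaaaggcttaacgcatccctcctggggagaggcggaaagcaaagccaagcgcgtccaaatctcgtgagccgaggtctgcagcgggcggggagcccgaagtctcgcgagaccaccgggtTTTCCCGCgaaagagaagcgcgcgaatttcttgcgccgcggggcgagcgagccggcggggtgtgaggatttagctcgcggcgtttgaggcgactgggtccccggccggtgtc
Dnmt1: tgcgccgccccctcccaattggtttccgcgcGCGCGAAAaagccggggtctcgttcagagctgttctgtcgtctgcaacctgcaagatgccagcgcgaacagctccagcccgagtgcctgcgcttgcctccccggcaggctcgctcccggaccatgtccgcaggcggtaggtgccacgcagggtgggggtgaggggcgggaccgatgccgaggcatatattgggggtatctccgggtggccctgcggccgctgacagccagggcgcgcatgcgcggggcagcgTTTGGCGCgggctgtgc
In Uhrf1, TTTCGCGC begins 185 bases before the start. In Hells, TTTCCCGC begins 62 bases before it. In Dnmt1, the reverse complement of TTTCGCGC begins 219 bases before and TTTGGCGC 33 bases after the start. The other Uhrf1 window and the other 2 Dnmt1 windows held none of these letters; from this nothing follows about the factor. The windows printed above for Uhrf1, Hells and Dnmt1 held 33, 34 and 33 CpG, against a median of 7.0 over all windows. The 14 member windows ranged from 2 CpG in a Dnmt1 window to 57 in the window of Tet2. A match of letters is a description and not a binding site.

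Among the 9 members, 2 (Uhrf1 and Uhrf2) were lower and 1 (Tet2) was higher in SMA without overlap of the groups over 6 libraries. Of the 17088 genes tested, 6.67% were lower and 10.3% higher without overlap. Without control replicate 2, 2 members were lower (Uhrf1 and Uhrf2) and 2 were higher (Hells and Tet2), where 13.9% of 16574 genes were lower and 14.2% higher. The members were chosen on this contrast, so nothing is read from their count. In limma, which fits a linear model to each gene and moderates its variance, 2.39% of all genes were lower and 3.40% higher at an unadjusted p of 0.05 over 6 libraries, and 5.20% lower and 5.27% higher without control replicate 2. No gene (0%) passed an adjusted p of 0.05 over 6 libraries, where 409 genes were lower and 581 higher past an unadjusted p of 0.05, and the smallest adjusted p was 0.683. Without control replicate 2, 2 genes (0.0121%) passed, Snora74a (log2 fold change 3.13) and Rpph1 (0.63), both higher and named after their values were seen, and no member did. This count was 1 under median ratio scaling or rescaling to the same total, and 0 without a filter or with the replicate number as a block. The split of genes depended on the scaling: median ratio scaling gave 565 lower and 528 higher genes, and rescaling to the same total 386 and 338. Quantile normalization over 6 libraries gave 335 lower and 662 higher genes. Without control replicate 2, rescaling gave 1462 and 521. The median log2 fold change was 0.04 over all genes tested and 0.02 over the members, and 0.0016 and 0.0032 without control replicate 2.

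**Figure D2:**
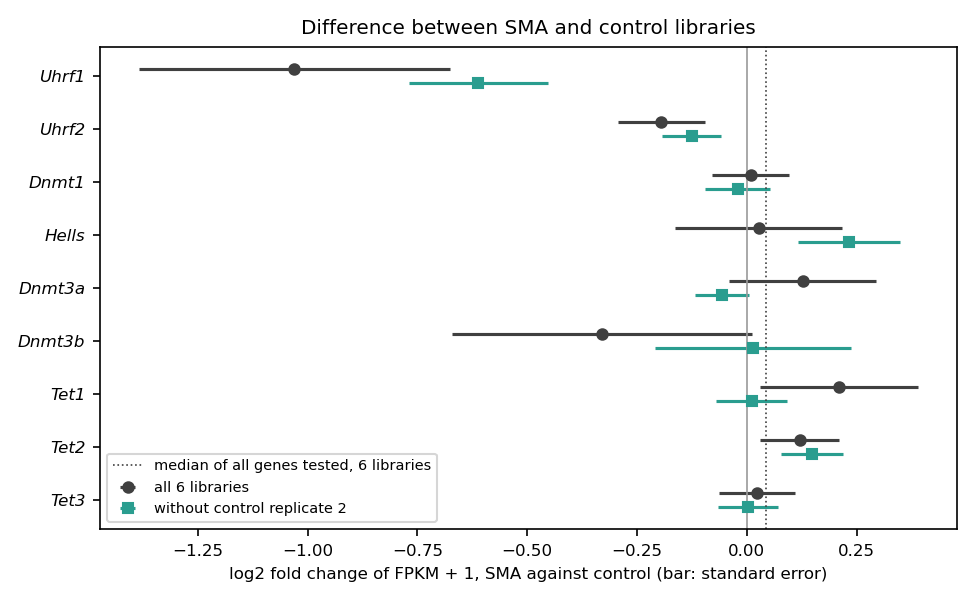
Points show the log2 fold change of FPKM + 1 (horizontal axis, SMA against control) of each gene with its standard error as a bar, circles over all 6 libraries and squares without control replicate 2. Uhrf1 is at -1.03 and -0.61, and the values of the other genes lie between -0.33 and 0.23.

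Dnmt3a (ENSMUSG00000020661), on the plus strand of chromosome 12 from 3806007 to 3914443, was at 68.1, 46.5 and 69.1 FPKM in the control libraries and 62.2, 66.8 and 68.8 FPKM in the SMA libraries. Only control replicate 2 was low, and the other 5 libraries lay together. The log2 fold change was 0.13 (standard error 0.168) over 6 libraries and -0.06 (standard error 0.0619) without control replicate 2, so its sign rests on that library. Dnmt3b (ENSMUSG00000027478), on the plus strand of chromosome 2 from 153648690 to 153687730, was the lowest of the 9, at 0.613, 2.82 and 1.17 FPKM in the control libraries and 0.512, 1.28 and 0.957 FPKM in the SMA libraries. Control replicate 2 was the highest library, and the groups overlapped. The log2 fold change was -0.33 (standard error 0.341) over 6 libraries and 0.01 (standard error 0.223) without control replicate 2. Dnmt3c, a germline copy of Dnmt3b beside it, reached at most 0.0262 FPKM, and how reads that match both genes were assigned is not known. Of the summed FPKM of the 3 Dnmt genes, Dnmt3a held between 80.2% and 81.3% in the 5 libraries and 73.3% in control replicate 2, where Dnmt3b held 4.45%.

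Tet2 (ENSMUSG00000040943), on the minus strand of chromosome 3 from 133463679 to 133585053 in the files, was at 22.7, 23.0 and 20.6 FPKM in the control libraries and 23.6, 24.9 and 23.7 FPKM in the SMA libraries. All SMA libraries were above all control libraries, but the groups overlapped over 6 libraries under median ratio scaling and quantile normalization. For Tet2 the log2 fold change was 0.12 (standard error 0.0893) over 6 libraries and 0.15 (standard error 0.0710) without control replicate 2. The span of Tet2 in the files runs past the end of the gene in GENCODE M21 at 133545139. Tet1 (ENSMUSG00000047146), on the minus strand of chromosome 10 from 62804570 to 62899118, was at 17.4, 12.05 and 20.2 FPKM in the control libraries and 18.8, 19.09 and 18.8 FPKM in the SMA libraries. The SMA libraries lay within the range of the control libraries, of which control replicate 2 was the lowest. For Tet1 the log2 fold change was 0.21 (standard error 0.180) and 0.01 (standard error 0.0806) without control replicate 2. Tet3 (ENSMUSG00000034832), on the minus strand of chromosome 6 from 83362373 to 83459084, lay between 25.4 and 28.2 FPKM in all 6 libraries. SMA differed from control by 0.02 on the log2 scale (standard error 0.0869) over 6 libraries and by 0.0032 (standard error 0.0676) without control replicate 2. Its locus holds 5430434F05Rik, a gene of unproven type, on the same strand, at a mean of 3.43 FPKM, so a share of its reads may be assigned to either. The summed FPKM of the Tet genes was 65.5, 60.7 and 69.0 in the control libraries and 69.3, 70.8 and 69.3 in the SMA libraries, and Tet3 was the largest part of it in every library.

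Control replicate 2 moved the members in different directions. Against the mean of the other 5 libraries, it held 3.52 times the FPKM of Uhrf1, 3.11 times that of Dnmt3b and 1.47 times that of Hells. It held 0.693 times the FPKM of Dnmt3a and 0.639 times that of Tet1. The median ratio was 0.886 over all genes tested, 0.537 over the 15 neuron markers, 2.76 over the 25 replication genes and 3.65 over the 24 mitosis genes, against 392 over the hepatocyte and 26.3 over the erythroid markers. The part of these other cell types in the members' values was not tested.

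**Figure D3:**
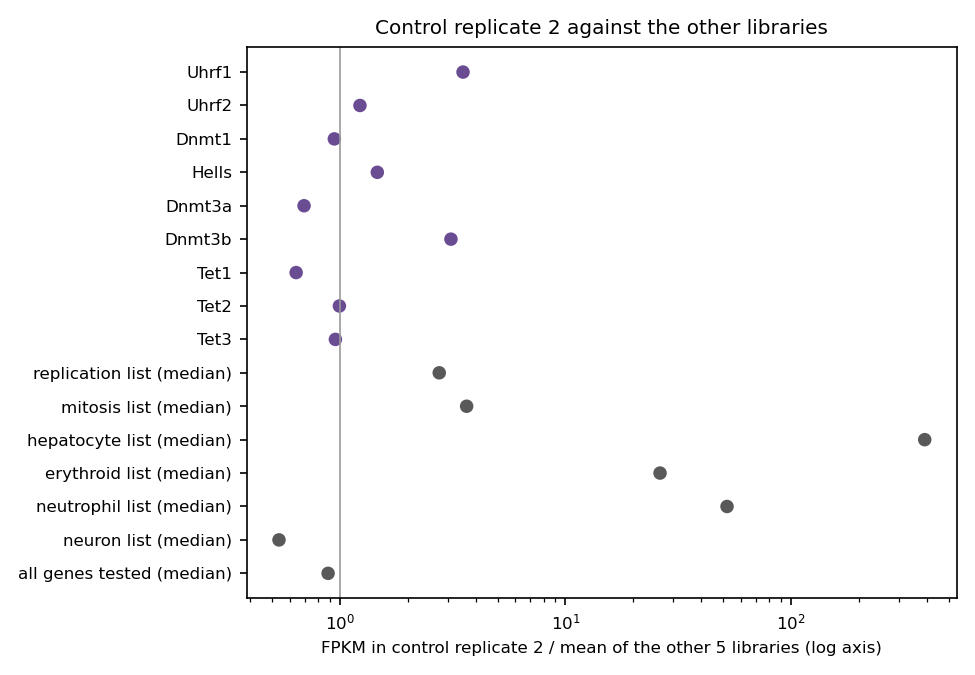
The horizontal log axis shows FPKM in control replicate 2 divided by the mean of the other 5 libraries, in purple for the 9 genes. Grey points are medians of the replication, mitosis, hepatocyte, erythroid, neutrophil and neuron lists and of all genes tested. Uhrf1 at 3.52 and Dnmt3b at 3.11 lie near the replication and mitosis lists. Dnmt3a at 0.693 and Tet1 at 0.639 lie between the neuron list at 0.537 and all genes at 0.886. Of the lists not drawn, motor neurons were at 0.596 and astrocytes at 0.764.

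Other genes of methylation maintenance were described from a list of 17 genes, all tested. By limma 2 of them were lower and 0 higher past an unadjusted p of 0.05, with and without control replicate 2, where 2.39% (6 libraries) and 5.20% (without it) of all genes were lower. Both act at the replication fork. Pcna, the sliding clamp, was at 33.4, 53.2 and 29.3 FPKM in the control libraries and 24.6, 20.9 and 23.8 FPKM in the SMA libraries. Its log2 fold change was -0.67 (standard error 0.219) over 6 libraries and -0.42 (standard error 0.0925) without control replicate 2. Pclaf, a factor that binds Pcna and is listed in the files under its older name, was at 3.26, 8.68 and 2.96 FPKM in the control libraries and 2.28, 1.94 and 1.96 FPKM in the SMA libraries. As for Uhrf1, neither gene overlapped between the groups, and control replicate 2 was highest. Cdca7, an activator of Hells named after its values were seen, had the same order of groups, at 1.87, 4.57 and 1.87 FPKM in the control libraries and 1.28, 1.37 and 1.42 FPKM in the SMA libraries. The most abundant genes of the list, Atrx, Trim28 and Ehmt2, are chromatin proteins of all cells, and their groups overlapped. The median log2 fold change of the list was -0.0019 over 6 libraries and 0.0081 without control replicate 2, near the medians of all genes.

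**Figure D4:**
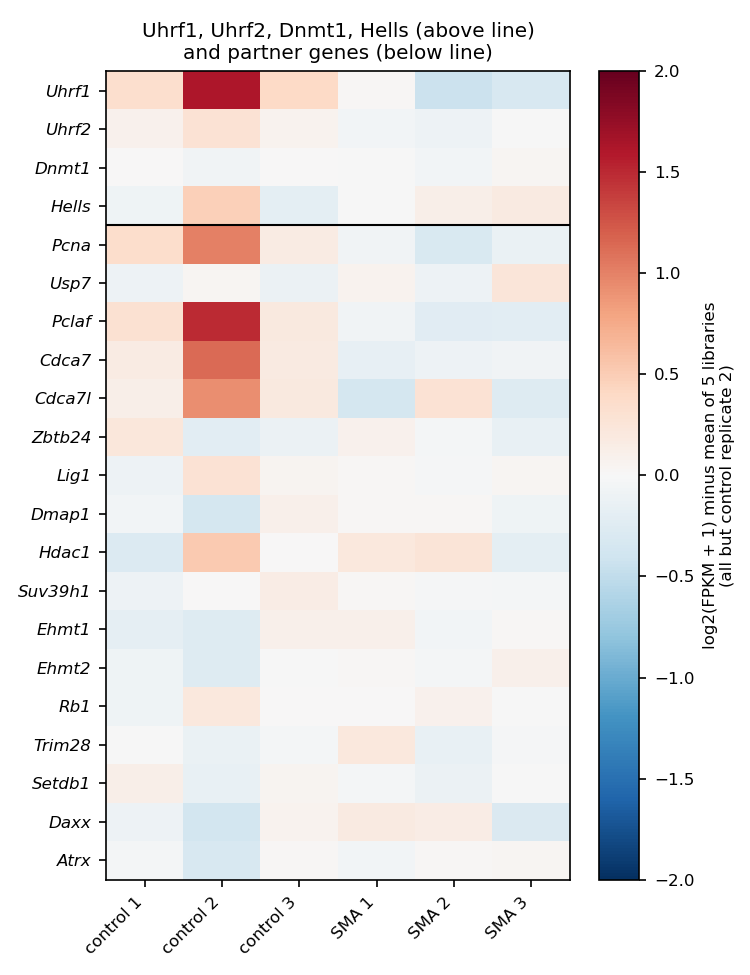
Colours show log2(FPKM + 1) of each gene in each library minus the mean of the 5 libraries other than control replicate 2, with Uhrf1, Uhrf2, Dnmt1 and Hells above the line and 17 partner genes below it. Uhrf1, Uhrf2, Pcna, Pclaf, Cdca7 and Cdca7l are above that mean in all control libraries, most of all in control replicate 2.

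Genes of replication and mitosis, which follow the share of dividing cells, were counted beside Uhrf1. Over all genes, 2.39% were lower at an unadjusted p of 0.05 over 6 libraries and 5.20% without control replicate 2. Of 25 replication genes, 6 were lower and 0 higher past an unadjusted p of 0.05 over 6 libraries, and 5 and 0 without control replicate 2. Their median log2 fold change was -0.57 and -0.21, all 25 had a negative value in both fits, and all 25 were highest in control replicate 2. Rfc3, a subunit of the clamp loader, was at 9.79, 11.1 and 9.93 FPKM in the control libraries and 7.79, 7.95 and 8.08 FPKM in the SMA libraries. Of 24 mitosis genes, 7 were lower and 0 higher over 6 libraries, and 9 and 0 without control replicate 2, with median log2 fold changes of -0.81 and -0.39. Kif11, a spindle motor, was at 2.87, 6.81 and 2.34 FPKM in the control libraries and 1.67, 1.21 and 1.65 FPKM in the SMA libraries. The replication list summed to 112, 264 and 97.4 FPKM in the control libraries and to 89.8, 82.4 and 83.7 FPKM in the SMA libraries. The mitosis list summed to 84.2, 254 and 74.3 FPKM and to 67.9, 41.7 and 56.5 FPKM, again without overlap. Uhrf1 is in neither list, and its FPKM are given relative to their sums. Relative to the replication sum it was at 4.44%, 5.16% and 5.37% in the control libraries and 4.24%, 3.05% and 3.33% in the SMA libraries. Relative to the mitosis sum the groups overlapped, at 5.93%, 5.36% and 7.04% in control and 5.61%, 6.03% and 4.93% in SMA. The part of a change in dividing cells in the lower Uhrf1 values was not tested.

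Markers of blood and vessels were counted in the same way, at a p that 2.39% of all genes passed as lower and 3.40% as higher over 6 libraries, and 5.20% and 5.27% without control replicate 2. Of 22 erythroid markers, led by Hbb-bs, 8 were lower and 0 higher in SMA without overlap over 6 libraries, and 8 and 1 without control replicate 2, counting also markers too low to be tested there. Of all genes tested, 6.67% were lower without overlap over 6 libraries and 13.9% without that library. By limma 0 of the 22 passed an unadjusted p of 0.05 over 6 libraries. Only 13 were tested without that library, since the others then averaged under 0.5 FPKM, and 3 of the 13 passed, all lower. The erythroid sum itself overlapped, at 1956, 19131 and 1272 FPKM in the control libraries and 1200, 1797 and 1421 FPKM in the SMA libraries. Of 8 endothelial markers, 4 were lower and 0 higher past an unadjusted p of 0.05 in both fits, and the list, led by Cldn5, summed to 64.1, 90.1 and 77.4 FPKM in control and 57.7, 46.2 and 50.4 FPKM in SMA. Cldn5, a tight junction protein of vessels, was at 25.8, 20.4 and 25.0 FPKM in the control libraries and 16.4, 15.7 and 14.4 FPKM in the SMA libraries. The neutrophil and progenitor list, led by S100a8, summed to 14.3, 496 and 9.59 FPKM in control and to 7.22, 9.44 and 10.1 FPKM in SMA. Their part in the Uhrf1 values was not tested. Lists of motor neurons, led by Ret, of astrocytes, led by Atp1b2, of microglia and of oligodendrocyte precursors, led by Olig1, had 0 of 8, 1 of 9, 0 of 8 and 0 of 8 tested genes past an unadjusted p of 0.05 over 6 libraries. The astrocyte gene was higher. Without control replicate 2 these lists had 2 lower, 1 lower and 1 higher, 0, and 1 lower. The 15 neuron markers had 0 over 6 libraries, and 1 lower and 3 higher without that library. For 8 oligodendrocyte markers, led by Mbp, this was 0 over 6 libraries and 2 lower without control replicate 2.

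Partners of the other members were counted at the same unadjusted p, which 2.39% of all genes passed as lower and 3.40% as higher over 6 libraries, and 5.20% and 5.27% without control replicate 2. Of 6 tested partners of de novo methylation, led by Nsd2 (listed under its older name), 0 passed an unadjusted p of 0.05 in either fit, and Dnmt3l, the cofactor of de novo methylation in germ cells, was at or below 0.0738 FPKM. Of 10 readers of methylated CpG, 0 passed in either fit. Of 16 tested genes of demethylation, 1 was higher and 0 lower over 6 libraries, and 1 higher and 1 lower without control replicate 2. The higher gene, Gadd45g, a stress-induced gene of the Gadd45 family, was at 4.64, 4.27 and 3.60 FPKM in the control libraries and 5.68, 6.76 and 5.34 FPKM in the SMA libraries. Of 17 genes of the methyl donor cycle, 0 passed over 6 libraries, and 0 were lower and 1 higher of 15 without control replicate 2. Their median log2 fold change moved from -0.34 to 0.03 without that library, in which the liver gene Bhmt was at 353 FPKM against 2.26 FPKM or less elsewhere. Mat2a, which makes the methyl donor in most tissues, lay between 70.7 and 77.4 FPKM in all 6 libraries. Of 20 genes taken here as germline genes silenced by DNA methylation, 17 were listed in the files and 1, Tdrkh, reached a mean of 0.5 FPKM. Tdrkh was at 12.4, 8.66 and 14.3 FPKM in the control libraries and 11.8, 12.4 and 11.8 FPKM in the SMA libraries, so it was not silent in either group. The others, such as Dazl and Sycp1, stayed at or below 0.508 FPKM in every library of both groups.

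The genes most like Uhrf1 were taken as those with the smallest root mean square difference of log2(FPKM + 1), centred on the mean of its libraries, among genes averaging 1 FPKM or more. Over 6 libraries and 15416 genes these were Emilin1 (0.0895), Hmmr (0.0900), Hist2h2bb (0.116), Pfkfb1 (0.133) and Ccna2 (0.135), where the median gene differed by 0.747. Pfkfb1 passed the limit of 1 FPKM only through control replicate 2, at 4.44 FPKM there and 1.275 FPKM or less elsewhere. Hmmr and Ccna2 belong to the mitosis list, and Hist2h2bb is a histone gene. Over the 5 libraries without control replicate 2 and 14888 genes, they were AU020206 (0.0704), Casp6 (0.0767), Mms22l (0.0773), Kif19a (0.0831) and Znrd1 (0.0906), where the median gene differed by 0.352. Neither list holds another member, and the 2 lists share no gene. Over 6 libraries the nearest member was Dnmt3b at 0.485 and the farthest Tet1 at 0.887. Without control replicate 2 the nearest was Uhrf2 at 0.280 and the farthest Hells at 0.464, and Dnmt3b, averaging under 1 FPKM, was not compared.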

How the data were processed

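The deposited unit is FPKM, made by the authors with HISAT2 and Cufflinks on mm10 from RNA depleted of ribosomal RNA. Versions and annotation are not given in the sources used here. Absent genes were set to 0. Of 25576 genes, 99.3% matched GENCODE M21 by identifier. On the scale of log2(FPKM + 1), genes averaging 0.5 FPKM or more were compared with limma 3.58.1 (R 4.3.3, trend, no covariate), two-sided, with Benjamini-Hochberg adjustment over all genes. The procedure was tested on simulated data with a spread taken from the libraries other than control replicate 2. No simulated library stood apart as that one does. The members and lists were chosen with earlier results of these data known. Named genes were the 9 members, the 3 genes of each list with the highest mean FPKM, list genes past an adjusted p of 0.05 or else at most 3 with the smallest unadjusted p under 0.05, and the 5 genes most like Uhrf1 with and without control replicate 2. Not all are given. Alternatives were other pseudocounts, filters and scalings, the replicate number as a block, and each library left out. Protein features were not analysed here.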

Additional observations from a re-analysis of the deposited data

How the results depend on the processing

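Uhrf1 was lower in SMA in all 13 alternatives over 6 libraries and in all 7 without control replicate 2. A filter cannot change the fold change of a gene, and neither can the block over 6 libraries. Such alternatives are counted in this tally and in those of the other members, and add nothing to them. The log2 fold change of Uhrf1 over 6 libraries ranged from -1.25 to -0.61 with each library left out, the smallest without control replicate 2. Over the 13 alternatives, the log2 fold change had the reported sign in 13 for Uhrf2, Tet1 and Tet2, in 12 for Dnmt3a and Dnmt3b, in 10 for Dnmt1 and Tet3 and in 9 for Hells. Without control replicate 2, that of Dnmt3a moved from 0.13 to -0.06, the methyl donor median from -0.34 (17 genes tested) to 0.03 (15) and the hepatocyte median from -2.38 (27 genes tested) to 0.13 (18), so the genes behind both medians changed too. Tet2 overlapped between the groups under median ratio scaling and quantile normalization, so 0 members were higher without overlap there, and with each library left out this count ranged from 1 to 3. Without control replicate 2, Dnmt3a was lower without overlap under quantile normalization and rescaling, so 3 members were lower there instead of 2. Genes lower at an unadjusted p under 0.05 ranged from 125 without SMA replicate 3 to 862 without control replicate 2 (142 without SMA replicate 2, 712 without control replicate 3). Genes higher ranged from 214 without SMA replicate 3 to 1040 without control replicate 3 (238 without SMA replicate 1, 255 without SMA replicate 2, 1032 without control replicate 1, 874 without control replicate 2). Without a filter 882 genes were higher, and after rescaling 338. With the replicate number as a block, 303 genes were lower and 356 higher, and 554 and 552 without control replicate 2. Deviations from the group means correlated at -0.037, 0.0161 and 0.0766 between same-numbered libraries, and not each best with its own number. These deviations include control replicate 2 in the control mean, so they cannot tell whether the numbers pair the libraries. Genes past an adjusted p of 0.05 numbered 0 over 6 libraries and 2 without control replicate 2, and for the latter 0 without a filter or with the block and 1 with median ratio scaling or rescaling, which also gave 1462 lower and 521 higher genes. With the filter at 1 FPKM, Dnmt3b was not tested without control replicate 2. The cause of these shifts was not tested. FPKM without counts gives no counting error, also for Dnmt3b, the lowest member.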
